A study of Mus musculus with 4 samples.

Results

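The genes described here are enzymes of the pentose phosphate pathway (*G6pdx*, *Pgd*, *Rpe*, *Taldo1* and *Tkt*) and targets of the transcription factor NRF2 (*Nqo1*, *Hmox1*, *Gclc*, *Gclm* and *Txnrd1*). They were chosen by gene symbol, with earlier results of these data known. They make up 10 of the 24347 gene rows of the expression data, with 5 genes in each class. RNA was sequenced from embryoid bodies (EBs) formed by mouse embryonic stem cells (mESCs) of strain 129/Ola, which begin to differentiate in these aggregates, collected at day 3 after withdrawal of LIF and with no other treatment. WT EBs were compared with EBs from mESCs in which CRISPR/Cas9 had removed the promoter of *Gm11549*, the gene of the micropeptide NEMEP (promoter KO), with 2 samples per genotype. The KO lines were grown from sorted single cells, and the labels do not say whether promoter KO 1 and promoter KO 2 are separate clones. The study describes the samples of a genotype as biological replicates, without saying how they were kept apart, and p-values measure only the spread between these samples.

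The oxidative branch of the pentose phosphate pathway draws NADPH from glucose 6-phosphate, and the non-oxidative branch exchanges carbon between pentose phosphates and glycolysis, which supplies ribose to dividing cells such as mESCs. NRF2 is held at a low level by KEAP1 and, once released, binds with small MAF proteins to antioxidant response elements and activates genes of glutathione and thioredoxin metabolism. Glutathione reductase and thioredoxin reductase use NADPH, and genes of the pentose phosphate pathway are themselves known NRF2 targets.

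Values are given below as a pair for each genotype, sample 1 before sample 2, without pairing samples between genotypes. *Gm11549*, the targeted gene, was at 0.750 and 0.522 FPKM in the WT pair, and at 0 and 0.0659 FPKM in the KO pair. FPKM counts sequenced fragments relative to transcript length and library size, so levels can be compared between genes. Both promoter KO samples were below both WT samples, as labelled, but the gene was too low in every sample to be tested. Summed over all genes, FPKM came to 677777 and 696928 in the WT pair and to 673951 and 679870 in the KO pair. From the lowest values the depth was estimated at 24500000, 21800000, 21500000 and 20000000 fragments in the same order, if fragments were 200 bases long.

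To ask whether these genes differ between genotypes, log2(FPKM + 1) was compared with limma in 11941 genes, those at 1 FPKM or more in 2 or more of the 4 samples, and p-values were adjusted over all of them by the Benjamini-Hochberg method. A gene is called here when its adjusted p is under 0.05. All 10 genes were tested. Only *Nqo1* was called, and it was higher in promoter KO, beside 427 called genes in all (3.58% of tested genes), of which 201 were higher in promoter KO (1.68%). With p left unadjusted and under 0.05, 7 of the 10 stood higher in promoter KO (3 pentose phosphate enzymes and 4 NRF2 targets) and 0 were lower. Among all tested genes 15% were higher and 15.6% were lower by that measure. Since the 10 genes were chosen with earlier results of these data known, their distance from these shares is a description only. The count of 7 became smaller with each sample left out in turn, most of all without WT 2. The share of all tested genes at this threshold also became smaller each time, and was likewise lowest without WT 2. The KO samples lay above the WT samples without overlap for 7 of the 10 genes and below them without overlap for 1, against 32.9% and 32.4% of all tested genes. The median log2 fold change was 0.33 over the 10 genes and 0.0042 over all tested genes. The calls depended on single samples, since 175 genes were called without WT 1, 0 without WT 2 or without promoter KO 1, and 486 without promoter KO 2, of which 237 were among the 427. In these fits limma takes the lone sample to vary like the other genotype.

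**Figure D1:**
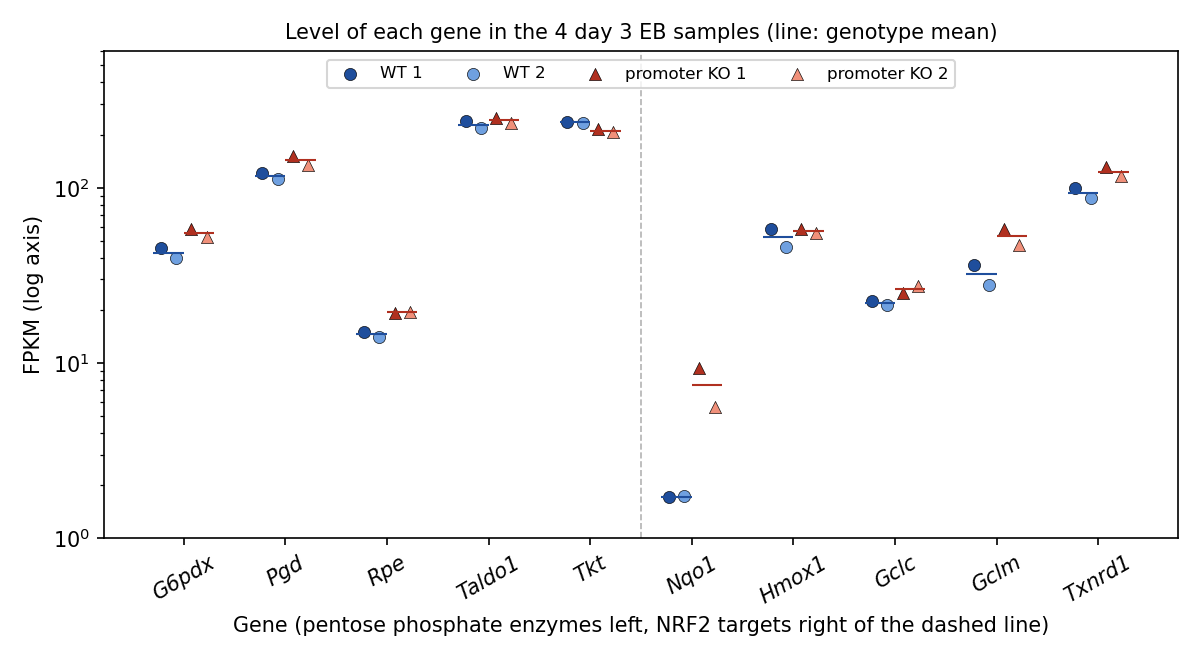
FPKM on a log axis for each of the 10 genes in the 4 samples, with circles for WT, triangles for promoter KO and a line at each genotype mean. *Nqo1* is the lowest gene, near 1.73 FPKM in WT, with the KO triangles at 9.32 and 5.60 FPKM.

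Promoter sequences are shown for the genes that hold the core of the antioxidant response element near their start, because this element links NRF2 to its targets. RefSeq (GRCm38.p6) windows from 250 bases before to 50 bases after the start were matched by symbol for 8 of the 10 genes in the table used here, which leaves *Hmox1* and *Gclc* unmatched. The 9 letters TGACNNNGC were searched on both strands. They occurred near *G6pdx*, *Pgd*, *Gclm* and *Txnrd1*, which is 4 of the 8 genes and 4 of their 11 windows, against 12.4% of 32851 windows and 14% of 27025 symbols over the genome. Among the other NRF2 targets listed for comparison, 5 of 21 symbols held it. Each sequence reads 5′ to 3′ on the strand given, with the match in capitals, and a match is a description of the letters and not a site shown to be bound.
G6pdx chrX:74428919-74428947 (+ strand): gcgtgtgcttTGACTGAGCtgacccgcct
Pgd chr4:149166061-149166089 (− strand): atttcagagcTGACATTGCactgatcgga
Gclm chr3:122245413-122245441 (− strand): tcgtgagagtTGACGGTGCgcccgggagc
Txnrd1 chr10:82859104-82859132 (− strand): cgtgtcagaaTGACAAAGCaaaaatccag
The match starts 57 bases before the start in *G6pdx*, 134 before in *Gclm* and 92 before in *Txnrd1*, and 3 bases after it in *Pgd*. In *Pgd* and *Txnrd1*, which have several annotated starts, it was found at a single start. In neither gene is that the start farthest upstream, whose window holds no match. The windows of *Rpe*, *Taldo1*, *Tkt* and *Nqo1* hold no match, which says only that these letters are not in the window. For *Nqo1*, the gene that was called, the 240 bases at chr8:107403216-107403455 on the − strand are shown. Capitals mark matches to a GC box (GGGCGG, in 35.7% of windows) and a TATA box (TATAAA, in 13.6% of windows), each searched with its reverse complement. These shares are over the full windows, which are longer than the 240 bases searched in *Nqo1*.
Nqo1: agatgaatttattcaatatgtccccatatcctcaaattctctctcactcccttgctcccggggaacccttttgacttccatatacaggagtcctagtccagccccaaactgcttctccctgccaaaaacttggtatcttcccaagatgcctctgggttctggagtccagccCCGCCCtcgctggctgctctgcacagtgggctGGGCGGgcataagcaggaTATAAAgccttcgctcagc

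Of the oxidative branch, *G6pdx* (X:74409483-74429194) encodes glucose-6-phosphate dehydrogenase, which catalyses its entry step and yields NADPH. Its level was 45.4 and 39.9 FPKM in the WT pair, and 58.4 and 52.7 FPKM in the KO pair. Both promoter KO samples were above both WT samples. The WT mean was 42.6 ± 3.90 FPKM and the KO mean 55.6 ± 4.0 FPKM (SD, n = 2), and the log2 fold change of 0.375 (95% CI 0.12 to 0.63, not adjusted for the number of genes) did not pass (limma, Benjamini-Hochberg adjusted p = 0.0845). *Pgd* (chromosome 4), which encodes 6-phosphogluconate dehydrogenase, the other NADPH-yielding enzyme of the branch, was at 122 and 112 FPKM in the WT pair and at 151 and 135.5 FPKM in the KO pair. The genotypes did not overlap, and the log2 fold change of 0.29 (95% CI 0.07 to 0.51) did not pass either (limma, Benjamini-Hochberg adjusted p = 0.106).

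Of the non-oxidative branch, *Rpe* encodes the epimerase of ribulose 5-phosphate, and its level was 15.0 and 14.1 FPKM in the WT pair and 19.4 and 19.6 FPKM in the KO pair. The genotypes did not overlap, and the log2 fold change was 0.40 (95% CI 0.15 to 0.65; limma, Benjamini-Hochberg adjusted p = 0.0736). *Taldo1* encodes transaldolase and was at 239.9 and 218 FPKM in the WT pair and at 251 and 235 FPKM in the KO pair. Promoter KO 2 lay between the WT samples, so the genotypes overlapped (log2 fold change 0.085, 95% CI −0.12 to 0.29; limma, Benjamini-Hochberg adjusted p = 0.519). *Tkt*, which encodes transketolase, was at 238 and 236 FPKM in the WT pair and at 216 and 209 FPKM in the KO pair. It was the member of the 10 with both promoter KO samples below both WT samples, with a log2 fold change of −0.16 (95% CI −0.33 to 0.015; limma, Benjamini-Hochberg adjusted p = 0.191). Summed over the 5 enzymes, the level was 660.2 and 620.0 FPKM in the WT pair and 695.8 and 651.3 FPKM in the KO pair. Promoter KO 2 lay between the WT samples in this sum, which *Taldo1* and *Tkt* dominate.

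*Nqo1* (8:107388225-107403206, − strand, with a single annotated transcript) encodes the quinone reductase NAD(P)H dehydrogenase, a widely used reporter of NRF2 activity. Its level was 1.72 and 1.73 FPKM in the WT pair, and 9.32 and 5.60 FPKM in the KO pair. Both promoter KO samples were far above the WT samples, which nearly coincided, and promoter KO 1 was higher than promoter KO 2. At the estimated depths and its 1553-base transcript these levels correspond to 57.3, 51, 271 and 151 fragments. The mean rose from 1.73 ± 0.00516 FPKM in WT to 7.46 ± 2.63 FPKM in promoter KO (SD, n = 2), or 4.32-fold. The log2 fold change was 1.60 (SE 0.229, 95% CI 1.04 to 2.16; limma, Benjamini-Hochberg adjusted p = 0.0379), while the log2 ratio of the means without a pseudocount was 2.11, since adding 1 FPKM shrinks the difference of a low gene. The adjusted p from limma was 0.0815 without WT 1, 0.197 without WT 2 and 0.129 without promoter KO 1, with log2 fold changes of 1.60, 1.60 and 1.28, so the call was lost in these cases and the direction was kept. It was 0.0312 without promoter KO 2, 0.144 without the filter on low values and 0.0601 without the intensity trend. In bulk RNA a difference in the share of cells that express a gene and a difference in RNA per cell cannot be told apart.

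Glutamate-cysteine ligase makes the precursor of glutathione, with *Gclc* encoding the catalytic subunit and *Gclm* the modifier subunit. *Gclm* was at 36.2 and 27.9 FPKM in the WT pair and at 58.2 and 47.3 FPKM in the KO pair. The genotypes did not overlap, and the log2 fold change was 0.71 (95% CI 0.32 to 1.095; limma, Benjamini-Hochberg adjusted p = 0.0623). *Gclc* was at 22.5 and 21.5 FPKM in the WT pair and at 25.1 and 27.5 FPKM in the KO pair. Again both promoter KO samples were above both WT samples (log2 fold change 0.25, 95% CI 0.002 to 0.49; limma, Benjamini-Hochberg adjusted p = 0.162). Exons of *Gclm* overlap *Gm6061* and *Gm17494* over 540 bases and share near-identical stretches with 15 annotated genes, among them *Ppia*, whose level was 3175 and 2603 FPKM in the WT pair and 3473 and 3549 FPKM in the KO pair, and whether reads were shared between them is not known. The value of *Gclm* is therefore uncertain.

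*Txnrd1*, which encodes thioredoxin reductase, was at 99.2 and 87.8 FPKM in the WT pair and at 131 and 117 FPKM in the KO pair. The genotypes did not overlap, with a log2 fold change of 0.40 (95% CI 0.16 to 0.65; limma, Benjamini-Hochberg adjusted p = 0.0713). *Hmox1*, which encodes heme oxygenase 1, was at 58.5 and 46.0 FPKM in the WT pair and at 58.1 and 54.9 FPKM in the KO pair. The WT samples spanned the promoter KO samples, and the log2 fold change of 0.12 (limma, Benjamini-Hochberg adjusted p = 0.551) turned to −0.05 without WT 2. The 5 NRF2 targets summed to 218.0 and 185.0 FPKM in the WT pair and to 281.7 and 251.9 FPKM in the KO pair, and here the promoter KO samples were above both WT samples.

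**Figure D2:**
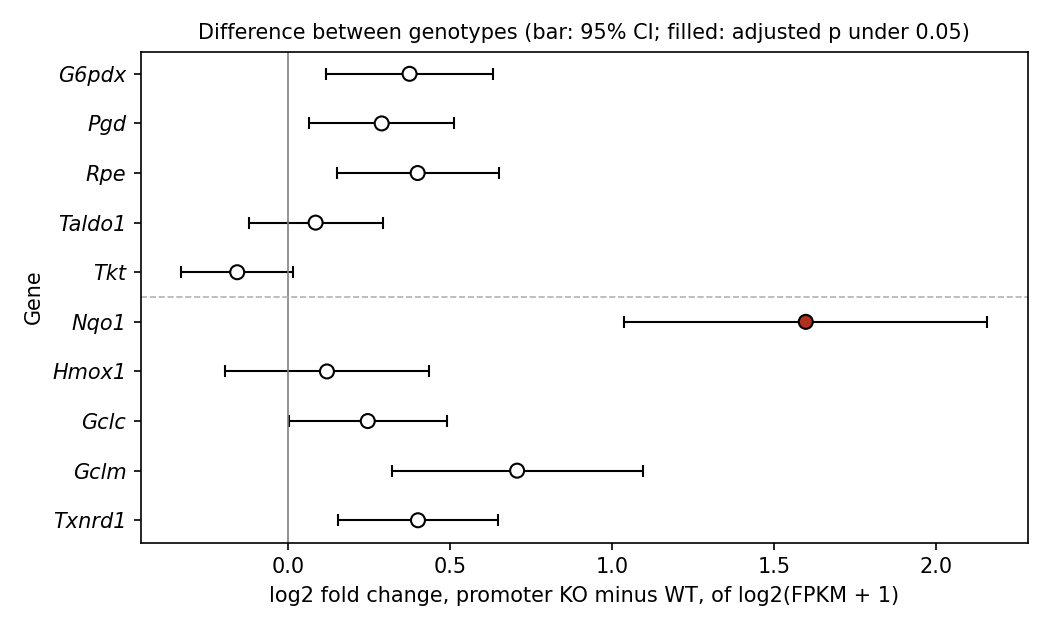
Log2 fold change (promoter KO minus WT, log2(FPKM + 1) scale) of each gene with its 95% CI, which is not adjusted for the number of genes, and filled where the adjusted p is under 0.05. *Nqo1* stands at 1.60 and is the filled point, while *Tkt* is the gene below 0.

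By level, *Tkt* and *Taldo1* led in WT, with means of 237 and 229 FPKM and overlapping samples, followed by *Pgd* (117 FPKM), *Txnrd1* (93.5 FPKM), *Hmox1* (52.2 FPKM) and *G6pdx* (42.6 FPKM). *Gclm* (32.0 FPKM), *Gclc* (22.0 FPKM), *Rpe* (14.6 FPKM) and *Nqo1* followed, and apart from the leading pair no neighbours in this order overlapped. In promoter KO *Taldo1* (243 FPKM) was above *Tkt* (212 FPKM) without overlap, and *Hmox1*, *G6pdx* and *Gclm* (56.5, 55.6 and 52.8 FPKM) overlapped as neighbours. The other genes had the same rank in both genotypes.

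Annotated overlaps bear on *G6pdx*, whose exons share 418 bases with *Ikbkg* on the opposite strand, and on *Rpe*, whose exons share 558 bases with *Kansl1l* on the opposite strand. Whether fragments were counted by strand is not given in the sources used here, so reads from such partners cannot be told apart. *Ikbkg* ranged from 2.71 to 3.77 FPKM over the 4 samples and *Kansl1l* from 0.740 to 1.45 FPKM. In both partners the promoter KO samples lay below the WT samples (log2 fold change −0.223 and −0.262; limma, Benjamini-Hochberg adjusted p = 0.342 and 0.357). *Taldo1* has a near-identical pseudogene, *Gm17823*. The 10 genes lie on 9 chromosomes, and the median log2 fold change of these chromosomes lay between −0.0381 and 0.0227.

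Other genes of these pathways were taken from 6 lists of 97 genes, also chosen with earlier results of these data known. Of these genes 84 were tested and 3 were called (beside 3.58% of all tested genes), with *Cbr3* and *Srxn1* higher and *Pgm2* lower in promoter KO. The list of other NRF2 targets held both of the higher genes among its 18 tested genes, with a median log2 fold change of 0.26. When the unadjusted p had to be under 0.05, 7 were higher and 2 lower, beside 15% and 15.6% of all tested genes. *Cbr3*, which encodes a carbonyl reductase, rose from 19.2 and 14.7 FPKM in the WT pair to 62.4 and 44.25 FPKM in the KO pair (log2 fold change 1.59; limma, Benjamini-Hochberg adjusted p = 0.0316). *Srxn1*, which encodes sulfiredoxin, rose from 7.70 and 7.48 FPKM to 14.2 and 12.9 FPKM (log2 fold change 0.755; limma, Benjamini-Hochberg adjusted p = 0.0412). In both genes the promoter KO samples lay above the WT samples. Neither was called without WT 2 (limma, Benjamini-Hochberg adjusted p = 0.157 and 0.204) or without promoter KO 1 (0.127 and 0.178), and *Srxn1* was also not called without WT 1 (0.0863) or without promoter KO 2 (0.056). Both were also not called without the filter (0.142 and 0.143) or without the trend (0.0563 and 0.0605). Not every gene of the list had a positive difference, and *Abcc1*, named after its values were seen, was at 16.8 and 24.3 FPKM in the WT pair and at 10.1 and 11.0 FPKM in the KO pair (limma, Benjamini-Hochberg adjusted p = 0.0564).

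**Figure D3:**
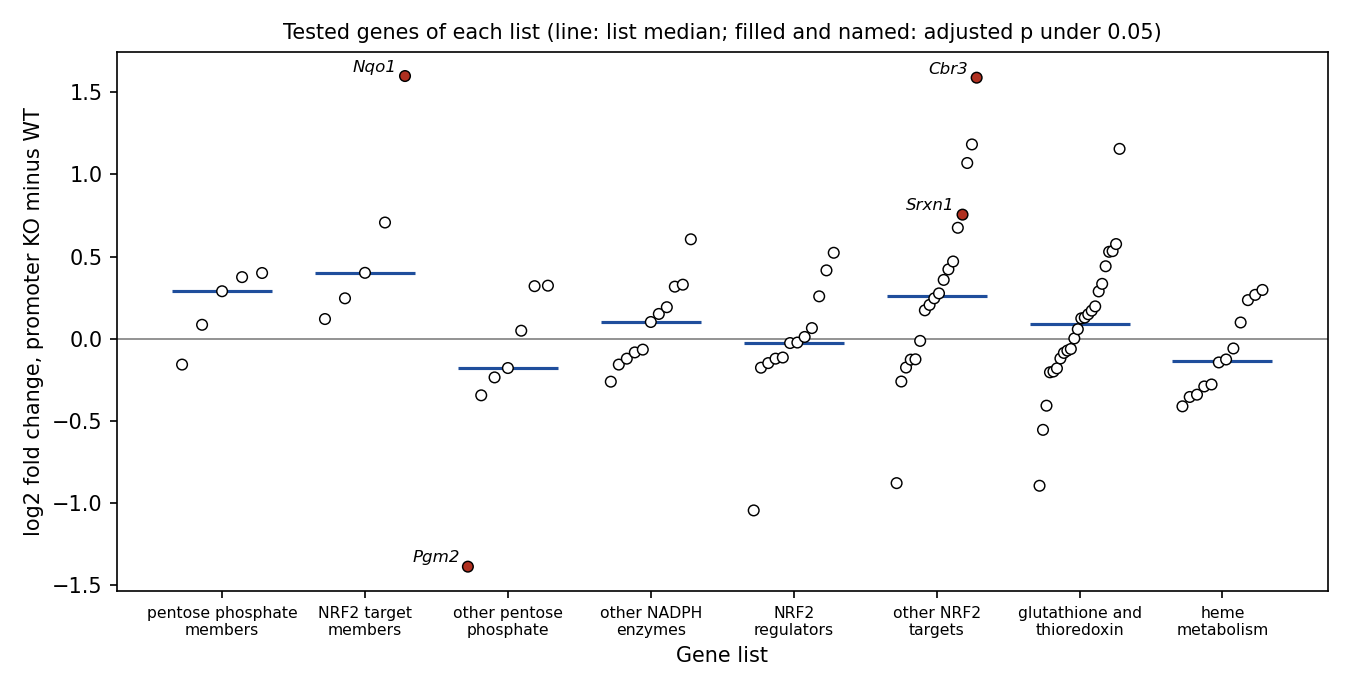
Log2 fold change (promoter KO minus WT) of every tested gene in the member classes and the 6 pathway lists, with a line at each list's median and filled, named points where the adjusted p is under 0.05. The filled points are *Nqo1*, *Cbr3* and *Srxn1* above 0 and *Pgm2* below 0.

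The list of other pentose phosphate genes had 7 tested of 12, with 1 called lower and a median log2 fold change of −0.18. *Pgm2* fell from 65.7 and 93.4 FPKM in the WT pair to 23.6 and 36.5 FPKM in the KO pair (log2 fold change −1.39; limma, Benjamini-Hochberg adjusted p = 0.0467). The symbol has been carried by different phosphomutase genes, and the files do not say which one the row holds. Its call was lost without WT 1, WT 2 or promoter KO 1 (limma, Benjamini-Hochberg adjusted p = 0.063, 0.216 and 0.171), and its adjusted p lay between 0.0509 and 0.146 with median centring, a mean filter of 5 FPKM, no trend or no filter. *Pgls*, named after its values were seen, is the lactonase between *G6pdx* and *Pgd* in the oxidative branch and the most abundant gene of the list, and it was at 116 and 126 FPKM in the WT pair and at 91.8 and 98.6 FPKM in the KO pair. Both promoter KO samples were below both WT samples (log2 fold change −0.34; limma, Benjamini-Hochberg adjusted p = 0.0712), the reverse of its neighbours in the branch, though the difference between these genes was not tested.

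No gene was called in limma among the 11 tested genes of other NADPH metabolism, the 12 NRF2 regulators, the 24 genes of glutathione and thioredoxin metabolism or the 12 genes of heme metabolism. Their medians of log2 fold change were 0.10, −0.024, 0.091 and −0.14, and that of the regulators turned to 0.007 when samples were centred on their medians. At an unadjusted p under 0.05 they held 2, 2, 6 and 1 higher and 1, 1, 3 and 3 lower genes in the same order, beside 15% higher and 15.6% lower among all tested genes. *Me1*, which encodes malic enzyme, had the smallest p of the NADPH list, at 10.9 and 10.1 FPKM in the WT pair and 14.2 and 19.2 FPKM in the KO pair, and *Mthfd1*, *Me2* and *Idh2* were its most abundant genes. *Prdx3*, which encodes a mitochondrial peroxiredoxin, had the smallest p of the glutathione and thioredoxin list, at 30.4 and 28.95 FPKM in the WT pair and 41.3 and 40.0 FPKM in the KO pair. *Sod1*, *Gpx4* and *Prdx2* were the most abundant of that list, and *Urod* and *Hmox2* were among the most abundant of the heme list.

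*Nfe2l2*, which encodes NRF2, was at 25.6 and 22.2 FPKM in the WT pair and at 38.5 and 31.3 FPKM in the KO pair. The genotypes did not overlap, and the log2 fold change was 0.52 (95% CI 0.19 to 0.85; limma, Benjamini-Hochberg adjusted p = 0.0737). *Maff*, which encodes a small MAF partner of NRF2 and is named after its values were seen, was at 29.1 and 27.4 FPKM in the WT pair and at 9.50 and 18.2 FPKM in the KO pair. Both KO samples were below both WT samples (log2 fold change −1.04; limma, Benjamini-Hochberg adjusted p = 0.074), and the gene was called lower without promoter KO 2. The other small MAF genes of the list did not share this direction. *Mafg* was at 29.9 and 26.35 FPKM in the WT pair and at 35.95 and 39.7 FPKM in the KO pair, without overlap (log2 fold change 0.42; limma, Benjamini-Hochberg adjusted p = 0.0741), and *Mafk* overlapped between genotypes (log2 fold change 0.065). *Keap1*, the inhibitor of NRF2, was at 12.2 and 13.6 FPKM in the WT pair and at 11.4 and 14.0 FPKM in the KO pair, where the samples overlapped (limma, Benjamini-Hochberg adjusted p = 0.916). *Sqstm1*, *Rbx1* and *Nfe2l1* were the most abundant regulators. NRF2 is controlled largely through its protein, which RNA does not measure.

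The labels name the cells as mesendoderm derived from mESCs, and mesendoderm markers were present in every sample. The marker lists were chosen with earlier results of these data known. For comparison, of all 11941 tested genes 32.4% were lower in promoter KO without overlap, 226 were called lower and 201 were called higher. All 9 mesendoderm markers were lower in both promoter KO samples than in both WT samples, 6 of them called lower (*Mixl1*, *Gsc*, *Mesp1*, *Lhx1*, *Evx1* and *Gata6*). Their summed level was 790.1 and 1024 FPKM in the WT pair and 151.8 and 319.6 FPKM in the KO pair. *T* was the most abundant by mean over the samples, though *Eomes* (56.3 FPKM) was above *T* (50.55 FPKM) in promoter KO 1. Of 13 tested pluripotency markers *Utf1* and *Dnmt3l* were called higher and 0 were called lower. *Nanog*, named after its values were seen, was at 139.9 and 113 FPKM in the WT pair and at 94.1 and 98.7 FPKM in the KO pair, both KO samples below both WT samples (log2 fold change −0.38; limma, Benjamini-Hochberg adjusted p = 0.0974). The pluripotency list summed to 2120 and 1881 FPKM in the WT pair and to 3185 and 2677 FPKM in the KO pair, with *Pou5f1* the most abundant. Of 18 tested markers of extraembryonic endoderm 11 were called higher and 0 lower, while *Sox17* and *Pdgfra*, named after their values were seen, were lower at an unadjusted p under 0.05. The called genes were *Sox7*, *Dab2*, *Amn*, *Cubn*, *Lrp2*, *Ttr*, *Lama1*, *Lamc1*, *Col4a1*, *Col4a2* and *Sparc*, the most abundant, and the list summed to 163.5 and 203.6 FPKM in the WT pair and 349.9 and 433.5 FPKM in the KO pair. None of these 3 lists had a called gene without WT 2 or without promoter KO 1, and the calls were 3, 0 and 8 without WT 1 and 7, 5 and 8 without promoter KO 2, while the sign of all 9 mesendoderm markers was the same in each case. With every sample 11 pluripotency and 16 extraembryonic endoderm markers had a positive difference, which became 9 and 14 without WT 1 and 11 and 14 without promoter KO 2. The part of these cell type differences in the differences of the pentose phosphate and NRF2 target genes was not tested.

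**Figure D4:**
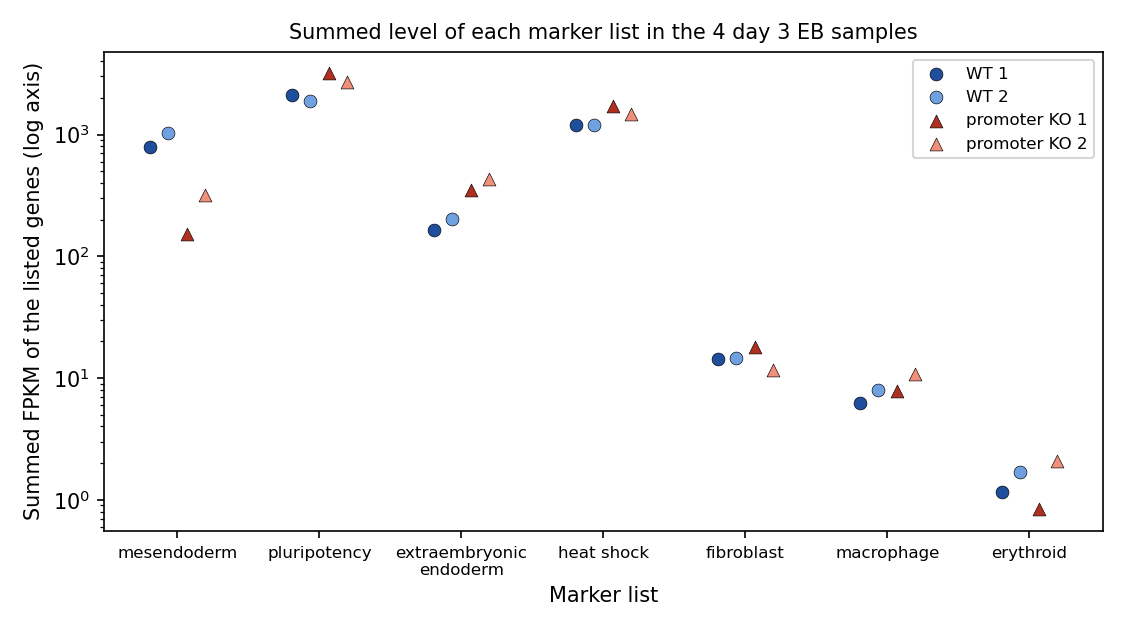
Summed FPKM of each marker list in each sample on a log axis, with circles for WT and triangles for promoter KO. The mesendoderm sum is lower and the extraembryonic endoderm and pluripotency sums are higher in both promoter KO samples than in both WT samples.

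Of 6 heat shock genes 0 were called in limma and 4 were higher in promoter KO at an unadjusted p under 0.05 (beside 15% of all tested genes), with *Hspa8* the most abundant and sums of 1205 and 1191 FPKM in the WT pair and 1701 and 1466 FPKM in the KO pair. Markers of cells that the EBs were not labelled to hold were low. Fibroblast markers summed to 14.3 and 14.6 FPKM in the WT pair and 18.0 and 11.7 FPKM in the KO pair, with *Thy1* the most abundant and *Lum* and *Postn* at 0 in all samples, and of 3 tested genes 0 were called in limma (2 lower at an unadjusted p under 0.05). Macrophage markers summed to 6.21 and 8.03 FPKM in the WT pair and 7.75 and 10.8 FPKM in the KO pair, almost wholly from *Cd68*, with *Adgre1* at 0 and *Cd68* not called (limma, Benjamini-Hochberg adjusted p = 0.25). The 8 erythroid markers found summed to at most 2.08 FPKM in any sample, too low to be tested. *Klf1* was the most abundant by mean over the samples, though *Hba-a1* (0.628 FPKM) was above *Klf1* (0.4925 FPKM) in promoter KO 2.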

How the data were processed

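RNA-seq values from day 3 EBs of 4 samples (2 WT and 2 promoter KO) were used, grouped by the sample labels. The values that the authors deposited are taken as FPKM, although the files name no unit and the methods describe RPKM. The submitters' processing notes name HISAT2 2.1.0, Cufflinks, Cuffnorm and mm10, whereas the methods name TopHat with Cufflinks. FPKM + 1 was log2 transformed and tested with limma 3.58.1 in R 4.3.3 (eBayes with intensity trend, 3.99 prior degrees of freedom), for genes reaching 1 FPKM in 2 or more of the 4 samples, with Benjamini-Hochberg adjustment. Exact permutation of 2 against 2 samples cannot give a p below 0.333. Positions are from GENCODE M21 (GRCm38) and promoters from RefSeq GRCm38.p6, and near-identical copies were found with BLAST 2.17.0 (95% identity over 200 bases). Depth was estimated from 4101 genes with a single transcript, as the most frequent depth at which their values would equal a single fragment. In each sample, between 108 and 127 of these genes lay at that peak. Python 3.11.15 with pandas 2.3.3 and matplotlib 3.10.9 served for tables and figures. The members, pathway lists and marker lists were chosen with earlier results of these data known. Named genes were all 10 members, the called genes of each pathway list or else its 3 most abundant genes and that with the smallest p, the most abundant and the called genes of each marker list, *Gm11549*, *Nfe2l2* and *Keap1*, except for an item that is not reported here. Further genes were named beyond this rule, among them those marked as named after their values were seen, *Mafg*, *Mafk* and overlapping or near-identical genes. Alternatives were another pseudocount, other filters, no trend, centring, quantile normalization, a replicate block, other thresholds and each sample left out.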

Additional observations from a re-analysis of the deposited data

How the results depend on the processing

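Of 109 alternative fitted values of the 10 genes, 101 kept their direction and their side of the threshold. For every gene but *Nqo1*, the only one called in the main fit, staying uncalled counted as keeping its side. Where a setting called 0 genes in all, as without a filter, that side was fixed. All 10 log2 ratios of means, which have no test, kept their direction, with *Nqo1* at 2.11. The exceptions among fitted values were *Nqo1* (lost call in 5 settings), *Hmox1* (from −0.05 without WT 2 to 0.29 without WT 1) and, under the block, *Gclm* and *Txnrd1*. The count of genes called, 427, became 0 without a filter (4059 of 18215 tested genes, or 22.3%, at an unadjusted p under 0.05 in limma), 203 with a mean filter of 5 FPKM (31.5% at an unadjusted p under 0.05), 82 without the trend (29.0%) and 283 with median centring. Leaving out each sample in turn gave from 0 to 486 genes. Among the 10 genes, 0 were called in limma without a filter, with the mean filter, where *Nqo1* was no longer tested, or without the trend. At an unadjusted p under 0.05 they held 8, 6 and 5 in the same order, against 7 in the main fit. With each sample left out, that count and the share of all tested genes were both below the main fit, and both were lowest without WT 2. The log2 fold change of *Nqo1* then lay between 1.28 and 1.92. The pathway lists, with 3 called genes, had 0 called without a filter or without the trend, and 0 to 5 with a sample left out, alternatives chosen after seeing the data. The cause of these changes was not tested. With the replicate number as a block, 1202 genes were called, which included all 427, with 3 of the 10 members and 18 pathway genes (12 higher and 6 lower). The numbers were taken not to pair the samples, since the deviations of same-numbered samples correlated at r = 0.0348 over all tested genes. That value does not settle the matter for the 10 genes. *G6pdx*, *Pgd*, *Taldo1*, *Tkt*, *Hmox1*, *Gclm* and *Txnrd1* were higher in sample 1 than in sample 2 in both genotypes, while *Rpe*, *Gclc* and *Nqo1* were not. *Cbr3*, *Srxn1* and *Pgm2* kept their direction in all settings, with 17 of 33 values no longer past the threshold. How far the depth of about 20000000 to 24500000 fragments limits the precision of *Nqo1* and lower genes was not tested.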
